A study of Mus musculus with 4 samples.

Results

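The effect of 14 days of cold was compared with that of thermoneutrality in young mice by single-nucleus RNA sequencing of inguinal white adipose tissue, the main subcutaneous fat depot of the mouse. The 4 mice compared were male C57BL/6 animals aged 9 weeks. All had first spent 3 weeks at 30 °C, after which 2 mice stayed at 30 °C for 2 more weeks (TN, for thermoneutral) while the other 2 spent their last 14 days in cold at 6 °C (14D). They were chosen by their sample names, as the 4 of the study's 12 mice that were young and held at TN or at 14D, and their nuclei fell into 8 of the 24 deposited aliquots. The 2 hashed aliquots of each mouse were summed, so that the replicate is the mouse (n = 2 in each group), and replicate 1 of each group was run in pool 1 and replicate 2 in pool 2. Of the other 8 mice, 2 young mice had 3 days of cold and 6 mice were 57 weeks old, with 2 each at TN, at 3 days and at 14D; all 12 mice set the estimate of the spread. Mice were housed singly for the final 2 weeks, carried no transgene by the labels, and gave 1 frozen tissue sample each, with the inguinal lymph node removed. The nuclei of each aliquot were hashed and then sorted into a well shared by the pool.

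White adipocytes store triglyceride in a single droplet and release fatty acids when noradrenaline acts on their β-adrenergic receptors. In sustained cold, sympathetic nerves drive part of the inguinal depot toward beige adipocytes, which hold many mitochondria and dissipate the proton gradient as heat through uncoupling protein 1 (Ucp1). Prolonged cold is also known to raise glucose uptake and de novo lipogenesis in thermogenic fat, the building of fatty acids from glucose carbon, alongside the burning of fatty acids.

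After filtering, 14634 nuclei of the series were kept and 4830 of them came from the 4 young mice. They comprised 2568 adipocyte nuclei and 2262 non-adipocyte nuclei, each with at least 300 genes, and the non-adipocyte nuclei included 1403 fibroblast-like, 329 endothelial-like and 476 immune-like nuclei. Counts are of unique molecular identifiers (UMIs, each 1 counted RNA molecule), and levels are counts per 1000000 UMIs (CPM). The names rest on marker genes, so marker levels describe the classes and do not test them. The 13 adipocyte markers, among them Plin1, Lipe and Pparg, summed to between 27814 and 39786 CPM in the adipocyte nuclei of the 4 mice. They summed to between 2153 and 3015 CPM in the non-adipocyte nuclei. In the endothelial-like nuclei among these the range was 4321 to 13393 CPM. Adipocyte nuclei numbered 586 and 241 in the TN mice and 1108 and 633 in the 14D mice. Depth differed with temperature: the adipocyte sums held 631625 and 380761 UMIs in the TN mice and 3445296 and 3577205 in the 14D mice. The median adipocyte nucleus held 945 and 1346 UMIs at TN and 2890 and 5330 at 14D. Deposited aliquots left out genes with 5 or fewer UMIs, so a gene listed at 0 can have held up to 5 UMIs per aliquot. The adjusted p is the Benjamini-Hochberg value of edgeR's quasi-likelihood test over all genes tested in the class, with a threshold of 0.05. A higher level in a class of nuclei cannot be told apart from a change in which nuclei make up that class. TN adipocyte nuclei lay mostly in 1 cluster (559 and 177 nuclei, against 38 and 8 at 14D), and 2 other adipocyte clusters, the first with 375 and 195 and the second with 309 and 289 nuclei of the 14D mice, held no TN nucleus.

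In adipocyte nuclei, 518 of 10284 genes (5.04%) were higher at 14D than at TN and 300 (2.92%) were lower. The higher genes included many members of the lists for thermogenesis, lipogenesis, glycolysis and mitochondrial metabolism, and the lower genes included white adipocyte markers and matrix genes. Both pools showed the same direction for 815 of the 818 genes. The genes were picked by their difference in these same mice, which largely fixes that agreement in advance. The number of calls depended on single mice, with 150 calls without TN replicate 1, 457 without TN replicate 2, 314 without 14D replicate 1 and 252 without 14D replicate 2, and it was 490 when every mouse was thinned to the UMI total of the shallowest one. Of the 518 higher genes, 266 were not listed in all 8 aliquots, and 126 held no UMI at TN; with each unlisted gene set to the most it can have held, 432 of the 518 passed, but so did 8327 genes in all. Only 19 of the 300 lower genes were not listed in all 8 aliquots, and the calls listed in all 8 were 252 higher (47.3%) and 281 lower. That listing by construction leaves out genes with few UMIs at TN, and a refit on the genes listed in all 8 gave 311 higher and 272 lower. Of 113 genes named by rule that passed and were refitted without each mouse, 40 passed in all 4 fits, 41 lost the call in 1 to 3 of them and 32 in all 4.

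**Figure D1:**
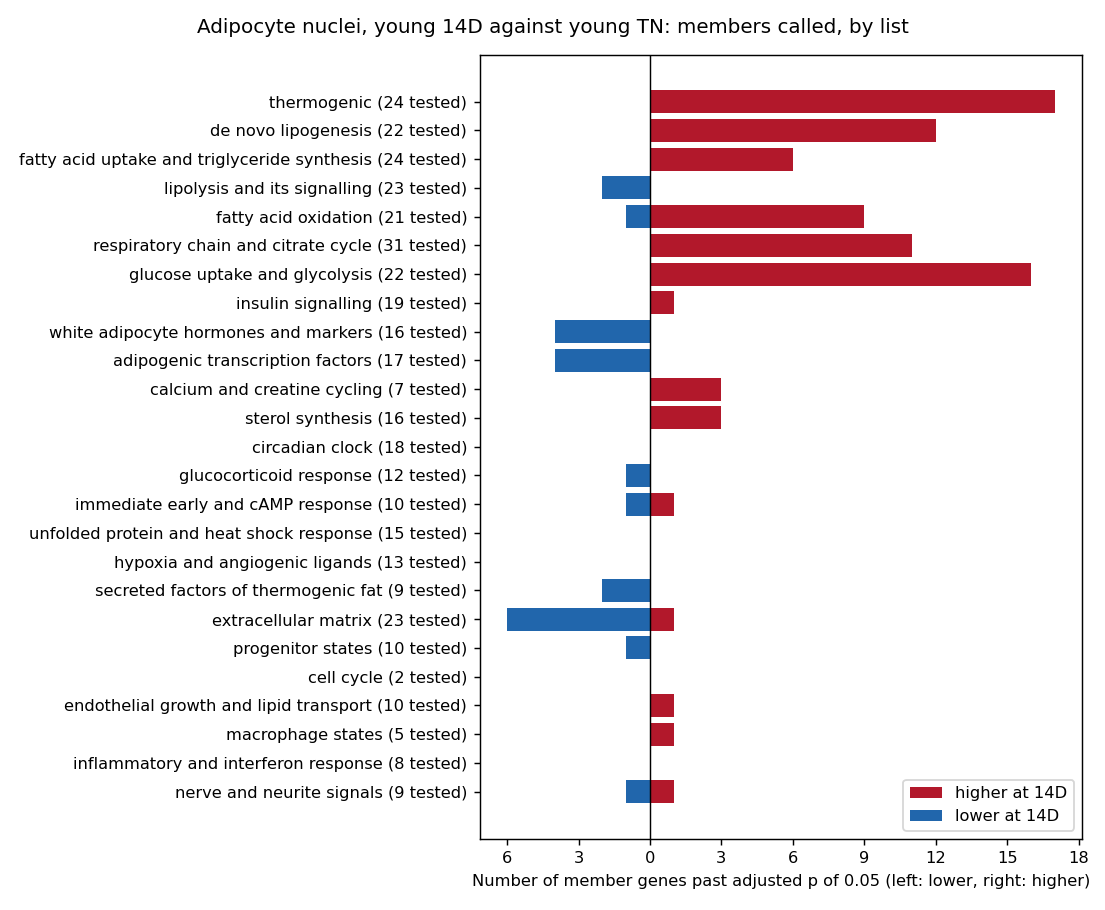
Number of member genes of each pathway list past the adjusted p of 0.05 in adipocyte nuclei of young mice (bars to the right, higher at 14D; bars to the left, lower), with the number tested beside each name. The longest bars to the right are 17 of 24 thermogenic and 16 of 22 glycolytic genes, and the longest to the left is 6 of 23 matrix genes.

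Of 24 thermogenic genes tested, 17 rose and 0 fell, with a median log2 difference of 3.97, or 1.84 with the 7 genes that had no TN UMI at their lower bounds, against 0.11 for all genes tested. The number that rose was 8 without TN replicate 1, 15 without TN replicate 2, 12 without 14D replicate 1 and 14 without 14D replicate 2. The summed level of the list was 2547 and 3464 CPM in the TN mice and 9425 and 6509 CPM in the 14D mice. Ucp1 (GRCm38, chr8:83290352-83298452, plus strand) was listed at 0 in all 4 TN aliquots and reached 199 and 171 CPM in the 14D mice, at least 9.11-fold higher than the most that 5 UMIs in each TN aliquot allow, with adjusted p = 0.0112. Without TN replicate 1 its adjusted p was 0.112. At a fixed 800 UMIs per nucleus, 10.9% and 8.74% of the adipocyte nuclei of the 14D mice held a Ucp1 UMI (20.9% in each mouse before thinning), against 0 of 251 immune-like nuclei of the same mice, which allows up to 1.20%. The median depths of all immune-like nuclei of these mice were 1153 and 1719 UMIs.

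Other members of the thermogenic list rose along with Ucp1. Cidea, a lipid droplet protein of brown and beige adipocytes, was at 7.82 and 13.3 CPM in the TN mice and 514 and 444 CPM in the 14D mice. Both 14D mice stood far above both TN mice (log2 fold change 5.59 ± 0.75 (SE), adjusted p = 0.00237), although the adjusted p was 0.057 without TN replicate 1. Gk, glycerol kinase, which lets adipocytes reuse the glycerol of lipolysis, was at 14.1 and 13.3 CPM in the TN mice and 487 and 212 CPM in the 14D mice. It was higher in both 14D mice (log2 fold change 4.65 ± 0.37 (SE), adjusted p = 0.000206), and it stayed past the threshold whichever mouse was left out. Acot11, the thioesterase also called brown fat-inducible thioesterase, was at 4.69 and 0 CPM in the TN mice and 672 and 469.9 CPM in the 14D mice. Its 3 TN UMIs gave a ratio of 187 (95% counting interval 64.0 to 908), but 3 of 4 TN aliquots did not list it, and the ratio is 31.2 if each of these held the 5 UMIs it can have held. Esrrg, an orphan nuclear receptor that drives mitochondrial genes, was at 87.6 and 47.7 CPM in the TN mice and 803 and 566 CPM in the 14D mice. Its levels did not overlap between groups (log2 fold change 3.30 ± 0.34 (SE), adjusted p = 0.000636).

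The coactivators of mitochondrial biogenesis also rose. Ppargc1a (PGC-1α) was at 53.2 and 125 CPM in the TN mice and 277 and 292 CPM in the 14D mice. The TN mice differed from each other, and both lay below the 14D mice (log2 fold change 1.78 ± 0.32 (SE), adjusted p = 0.00869); the adjusted p was 0.107 without TN replicate 1 and 0.060 without 14D replicate 1. Ppargc1b (PGC-1β) was at 300.4 and 435 CPM in the TN mice and 1538 and 988 CPM in the 14D mice. Both 14D mice again lay above both TN mice (log2 fold change 1.75 ± 0.26 (SE), adjusted p = 0.00399). Ppara, the fatty acid-activated receptor, was at 225 and 427 CPM in the TN mice and 1848 and 831 CPM in the 14D mice, and the 14D mice differed from each other more than the TN mice did (log2 fold change 1.89 ± 0.43 (SE), adjusted p = 0.0256); the adjusted p was 0.124 without TN replicate 1 and 0.140 without 14D replicate 1.

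Elovl3, a fatty acid elongase of thermogenic fat, Plin5, a perilipin that ties droplets to mitochondria, and Slc27a2, a fatty acid transporter, held no UMI in the adipocyte nuclei of the TN mice. At 14D, Elovl3 reached 58.4 and 73.2 CPM (at least 3.26-fold higher), Plin5 59.9 and 44.7 CPM (at least 2.57-fold higher) and Slc27a2 61.4 and 37.9 CPM (at least 3.25-fold higher, its TN nuclei having room for 15 UMIs rather than 20 because 1 TN aliquot listed it). Elovl3 and Plin5 passed in every fit without a mouse, and Slc27a2 had adjusted p = 0.055 without TN replicate 1. Pank1 (pantothenate kinase, of coenzyme A synthesis), Kcnk3 (a potassium channel), Letmd1, Cox8b, Otop1 and Kng2 also passed, and Cox8b, Otop1 and Kng2 lost the call in all 4 fits without a mouse. The members that did not pass included Prdm16, the transcriptional regulator of beige identity, at 275 and 464 CPM in the TN mice and 562 and 402 CPM in the 14D mice (adjusted p = 0.545), and Dio2, the deiodinase that activates thyroid hormone, at 0 in both TN mice and 21.9 and 14.5 CPM in the 14D mice (adjusted p = 0.163). Adrb3, the β3-adrenergic receptor, was at 740.1 and 1012 CPM in the TN mice and 576 and 414 CPM in the 14D mice, lower in both 14D mice without passing the threshold (log2 fold change −0.79 ± 0.25 (SE), adjusted p = 0.0838). It passed without 14D replicate 1 (log2 −1.27, adjusted p = 0.037), as the single lower gene of the list.

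The summed level of the de novo lipogenesis genes was 8635 and 7640 CPM in the TN mice and 27689 and 35416 CPM in the 14D mice, a ratio of 3.21 in pool 1 and 4.64 in pool 2. It covers the 23 of the list's 24 genes that were in the files. Of 22 members tested, 12 rose and 0 fell, with a median log2 difference of 1.46. The number that rose was 2 without TN replicate 1, 1 without TN replicate 2, 8 without 14D replicate 1 and 3 without 14D replicate 2. The enzymes run from citrate to desaturated fatty acids: Acly splits citrate into acetyl-CoA, Acaca makes malonyl-CoA, Fasn builds palmitate, Elovl6 lengthens it and Scd1 desaturates the product. The 300 bases around the start of Acly and of Fasn are shown because both genes code for enzymes of this route and rose together, and that of Ucp1 because it is the defining thermogenic gene. Each runs 5′ to 3′ on the strand of the gene, from 250 bases before its start to 50 bases after it, as given by RefSeq for GRCm38.p6, and capitals mark CCAAT or its reverse complement ATTGG, the letters of the CCAAT box that many promoters hold.
Acly promoter, chr11:100527951-100528250, minus strand: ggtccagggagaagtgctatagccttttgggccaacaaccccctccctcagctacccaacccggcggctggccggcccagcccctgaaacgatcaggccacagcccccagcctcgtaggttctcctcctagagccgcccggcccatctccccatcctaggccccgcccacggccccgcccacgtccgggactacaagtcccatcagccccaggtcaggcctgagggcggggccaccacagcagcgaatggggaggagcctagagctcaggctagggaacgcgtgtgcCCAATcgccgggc
Fasn promoter, chr11:120824498-120824797, minus strand: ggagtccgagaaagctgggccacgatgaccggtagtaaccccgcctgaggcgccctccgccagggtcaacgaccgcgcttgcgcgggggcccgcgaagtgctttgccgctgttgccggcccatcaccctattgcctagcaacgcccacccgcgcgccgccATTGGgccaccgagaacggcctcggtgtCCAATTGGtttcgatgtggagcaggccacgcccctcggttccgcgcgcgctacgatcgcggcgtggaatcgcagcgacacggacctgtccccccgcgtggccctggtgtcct
Ucp1 promoter, chr8:83290098-83290397, plus strand: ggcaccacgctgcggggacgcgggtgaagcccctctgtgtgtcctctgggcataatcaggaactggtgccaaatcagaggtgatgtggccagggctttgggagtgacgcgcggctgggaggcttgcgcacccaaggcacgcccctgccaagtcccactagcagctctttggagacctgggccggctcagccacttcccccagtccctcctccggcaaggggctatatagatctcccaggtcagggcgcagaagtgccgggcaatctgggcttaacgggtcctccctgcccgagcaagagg

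The Acly window held 1 such match and the Fasn window 3, with CCAAT and ATTGG overlapping in the last, and the Ucp1 window held none. On either strand, CCAAT occurred in 5 of the 10 higher lipogenic genes matched to a RefSeq promoter. The 5 were Acly, Fasn, Elovl5, Taldo1 and Slc25a1. It occurred in 42.5% of the 388 matched promoters of all higher genes, in 38.6% of those of the 8021 matched tested genes and in 37.9% of all 27025 promoters. The E-box CACGTG, which reads the same on both strands, occurred in 2 of those 10 genes, in 9.79% of the promoters of higher genes, in 10.7% of those of tested genes and in 7.24% of all. Of the 24 genes of the lipogenesis list, 21 were matched to a promoter in the RefSeq set used, and Scd1, Scd2 and Fads1 were not matched. These matches describe letters in a window and do not show binding.

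Acaca (chr11:84129672-84401651, plus strand), acetyl-CoA carboxylase, was at 1261 and 1288 CPM in the TN mice and 9264 and 9516 CPM in the 14D mice. The mice of each group lay close together (log2 fold change 2.88 ± 0.70 (SE), adjusted p = 0.031). Acly was at 105 and 37.1 CPM in the TN mice and 870.5 and 2856 CPM in the 14D mice, and 14D replicate 2 stood well above 14D replicate 1 (log2 fold change 4.39 ± 0.96 (SE), adjusted p = 0.0219). Fasn was at 247 and 193 CPM in the TN mice and 1283 and 1729.7 CPM in the 14D mice (log2 fold change 2.76 ± 0.65 (SE), adjusted p = 0.0286). All 3 enzymes were higher in both 14D mice, but the adjusted p of each was over 0.05 in at least 3 of the 4 fits that left out a mouse. It lay between 0.097 and 0.149 for Acaca, between 0.073 and 0.144 for Fasn, and was 0.072, 0.125 and 0.096 for Acly without TN replicate 1, TN replicate 2 and 14D replicate 2. Elovl6 was at 81.4 and 31.8 CPM in the TN mice and 1413 and 2323 CPM in the 14D mice, the widest separation among the lipogenic enzymes with over 3 TN UMIs (log2 fold change 4.92 ± 0.89 (SE), adjusted p = 0.00904). Its adjusted p was 0.064 and 0.070 without the first and the second TN mouse. Scd1 was at 606 and 456 CPM in the TN mice and 1929 and 2344 CPM in the 14D mice (log2 fold change 2.04 ± 0.43 (SE), adjusted p = 0.0191). Me1, malic enzyme, which supplies NADPH, was at 329 and 389.6 CPM in the TN mice and 1655 and 2812 CPM in the 14D mice (log2 fold change 2.56 ± 0.68 (SE), adjusted p = 0.0439). Both were higher in both 14D mice, and the call was lost in 3 of the 4 fits without a mouse for Scd1 and in all 4 for Me1.

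Tkt, transketolase of the pentose phosphate route, was at 268 and 257 CPM in the TN mice and 1368 and 1519 CPM in the 14D mice. It was the lipogenesis member with the smallest adjusted p and passed in every fit that left out a mouse (log2 fold change 2.46 ± 0.22 (SE), adjusted p = 0.000327). Mlxipl, which encodes the glucose-sensing factor ChREBP, was at 809 and 769 CPM in the TN mice and 1465 and 1574 CPM in the 14D mice, close within each group (log2 fold change 0.94 ± 0.20 (SE), adjusted p = 0.0204), and it did not pass in any of the 4 fits without a mouse. Srebf1, which encodes SREBP-1, was at 546 and 278 CPM in the TN mice and 396 and 343 CPM in the 14D mice. It overlapped between the groups (log2 fold change −0.15 ± 0.30 (SE), adjusted p = 0.812), and its log2 difference turned to 0.36 without TN replicate 1. Acss2, which makes acetyl-CoA from acetate, was at 194 and 122 CPM in the TN mice and 1600.2 and 2023 CPM in the 14D mice and did not pass (log2 fold change 3.46 ± 1.01 (SE), adjusted p = 0.0615). Scd2 held 1 UMI at TN and 645 at 14D, a ratio of 93.0 (95% counting interval 16.6 to 3678), or 5.81 with the 3 TN aliquots that did not list it at 5 UMIs each.

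At 800 UMIs per nucleus, the share of adipocyte nuclei with a UMI of these genes was higher at 14D as well. For Acly the share was 7.79% and 2.42% in the TN mice and 39.0% and 76.8% in the 14D mice, against 8.11% and 0% and then 1.89% and 1.38% in immune-like nuclei, taken as the background. For Acaca it was 59.0% and 62.3% at TN, and 93.5% and 96.8% at 14D. These shares leave out 256 of the 2568 adipocyte nuclei, which held under 800 UMIs. Left out were 188 of 586 and 34 of 241 nuclei in the TN mice, and 30 of 1108 and 4 of 633 in the 14D mice. The TN shares thus describe the deeper nuclei of those mice. In the 14D mice, adipocyte nuclei in which no Ucp1 UMI was counted held 25326 and 33508 CPM of the lipogenesis list, against 35653 and 42255 CPM in nuclei with 1 or more.

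**Figure D2:**
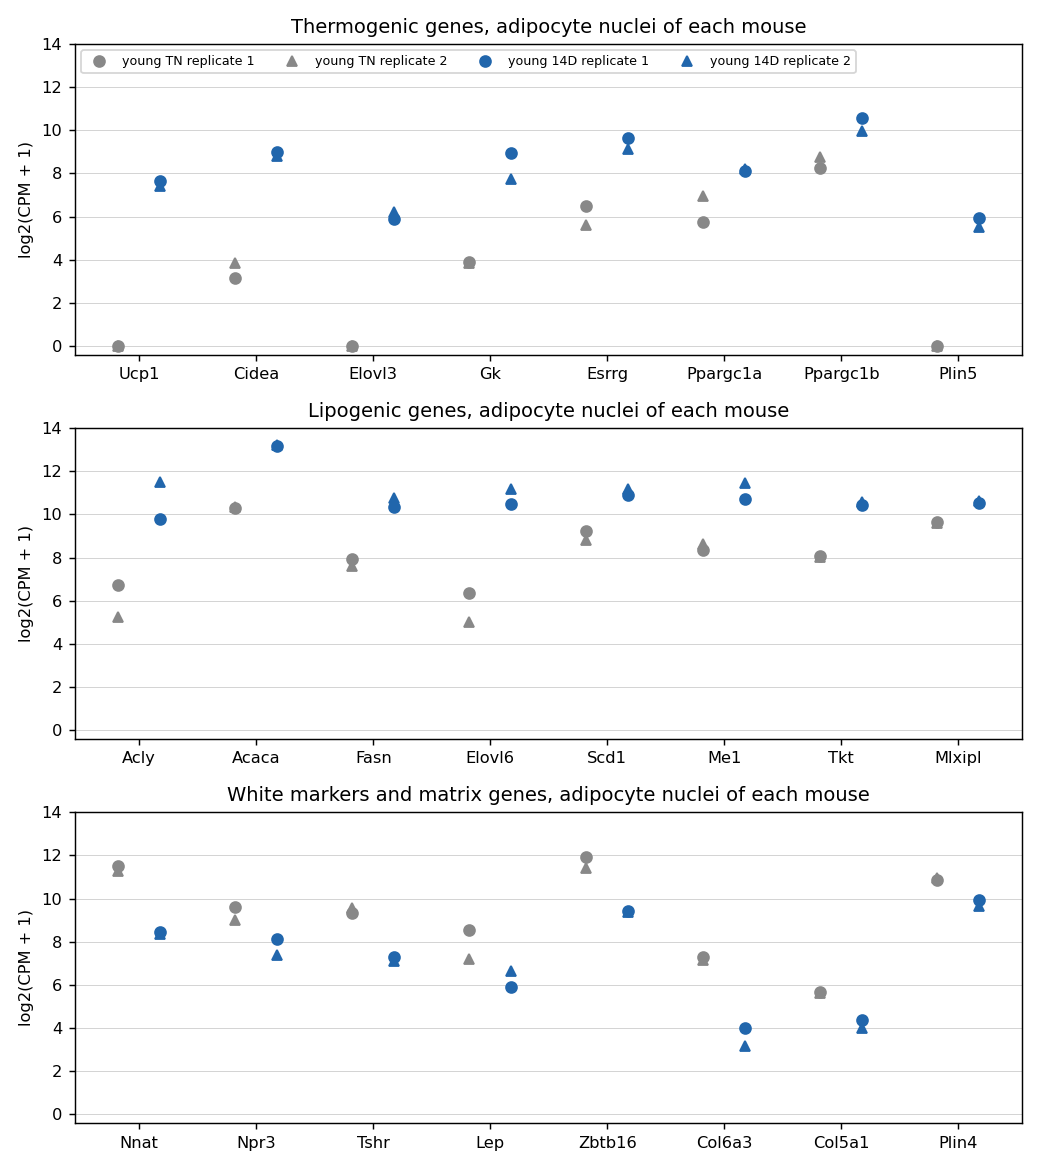
Levels of 24 genes in the adipocyte nuclei of each young mouse, as log2(CPM + 1) (gray, TN; blue, 14D; circles, replicate 1; triangles, replicate 2). Thermogenic and lipogenic genes are higher in both 14D mice, with Acaca near 9264 and 9516 CPM against 1261 and 1288 CPM, and white marker and matrix genes are lower, with Nnat at 347 and 325 CPM against 2915 and 2520 CPM.

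Of 22 genes for glucose uptake and glycolysis, 16 rose and 0 fell, with a median log2 difference of 1.73, or 1.64 with the gene that had no TN UMI at its bound. The number that rose was 5 without TN replicate 1, 7 without TN replicate 2, 7 without 14D replicate 1 and 3 without 14D replicate 2, 9 with the sums thinned to the lowest young total and 8 with the 4 young mice alone. The summed level was 1730 and 1762 CPM in the TN mice and 3541 and 4048 CPM in the 14D mice. Pkm, pyruvate kinase, was at 20.3 and 29.2 CPM in the TN mice and 166 and 170.0 CPM in the 14D mice (log2 fold change 2.80 ± 0.30 (SE), adjusted p = 0.000854). Eno1, enolase, was at 36.0 and 39.8 CPM in the TN mice and 170.4 and 170.0 CPM in the 14D mice (log2 fold change 2.17 ± 0.21 (SE), adjusted p = 0.000502). Dlat, a subunit of the pyruvate dehydrogenase complex that passes glycolytic carbon to acetyl-CoA, was at 103 and 138 CPM in the TN mice and 349 and 626 CPM in the 14D mice (log2 fold change 1.98 ± 0.24 (SE), adjusted p = 0.00147). In all 3 genes the TN mice lay close together and below both 14D mice. Hk2, hexokinase 2, was at 344 and 366 CPM in the TN mice and 695 and 862 CPM in the 14D mice (log2 fold change 1.15 ± 0.28 (SE), adjusted p = 0.034), and its call was lost in 3 of the 4 fits without a mouse. Of 19 insulin signalling genes, 1 rose, Mtor, the kinase of the growth pathway, at 103 and 122 CPM in the TN mice and 282 and 283 CPM in the 14D mice (log2 fold change 1.34 ± 0.19 (SE), adjusted p = 0.00304), and the list's median was −0.09. That is a share near the 5.04% of all genes, and without TN replicate 2 the list had 1 higher and 3 lower genes.

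Of 21 genes of fatty acid oxidation, 9 rose and 1 fell, with a median log2 difference of 0.86. The number that rose was 0 without TN replicate 1 and 6, 4 and 5 without TN replicate 2, 14D replicate 1 and 14D replicate 2. Hadha, the α subunit of the mitochondrial trifunctional protein, was at 81.4 and 106 CPM in the TN mice and 405 and 372 CPM in the 14D mice (log2 fold change 2.07 ± 0.29 (SE), adjusted p = 0.00286). Pdk4, which brakes pyruvate dehydrogenase and so spares glucose, was at 7.82 and 0 CPM in the TN mice and 492 and 464 CPM in the 14D mice. Its level at TN rested on 5 UMIs, all in 1 mouse (log2 fold change 6.59 ± 1.08 (SE), adjusted p = 0.00529), and the ratio of pooled levels was 94.4, or 23.6 with the 3 TN aliquots that did not list it at 5 UMIs each. Without TN replicate 1 the adjusted p was 0.057 for Hadha and 0.067 for Pdk4. Acadvl, Acadl, Acadm, Hadhb, Acaa2, Etfdh and the carnitine carrier Slc25a20 also rose, by 0.77 to 2.05 on the log2 scale. None of these 7 passed without TN replicate 1, and Acadl, Acadm and Acaa2 passed in no fit without a mouse.

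Of 31 genes of the respiratory chain and citrate cycle, 11 rose and 0 fell, with a median log2 difference of 0.90. Between 3 and 6 rose when 1 of the 4 mice was left out, and 6 with the 4 young mice alone. Ogdh, of the citrate cycle, was at 179.9 and 196 CPM in the TN mice and 602 and 510.1 CPM in the 14D mice and had the smallest adjusted p of the list (log2 fold change 1.57 ± 0.18 (SE), adjusted p = 0.000948). Atp5a1, a subunit of ATP synthase, was at 90.7 and 74.2 CPM in the TN mice and 200.3 and 228 CPM in the 14D mice (log2 fold change 1.36 ± 0.22 (SE), adjusted p = 0.00507). The TN and 14D levels of both genes did not overlap. The complex I and complex II subunits that passed had log2 differences of 0.68 in Ndufs4, 0.83 in Ndufs1, 2.18 in Ndufv1 and 0.83 in Sdha. Ndufs4, Ndufv1 and Sdha lost the call in all 4 fits without a mouse and Ndufs1 in 3. The mitochondrially encoded mt-Co1, mt-Co2 and mt-Co3, which stood in the list of RNA quality genes, rose by 3.08, 3.41 and 3.05 on the log2 scale, while the summed RNA quality list was 71413 and 80683 CPM at TN and 55620 and 67957 CPM at 14D. Transcripts of the mitochondrial genome lie outside the nucleus, and their part in the result was not tested.

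Genes for uptake and esterification of fatty acids rose in part. The summed level of the 25 such genes in the files was 13999 and 22216 CPM in the TN mice. It was 27313 and 24420 CPM in the 14D mice, a ratio of 1.95 in pool 1 and 1.10 in pool 2. Of 24 genes, 6 rose and 0 fell, with a median log2 difference of 0.62, and 3 or 4 rose when 1 of the 4 mice was left out. Gpd2, the mitochondrial glycerol-3-phosphate dehydrogenase, was at 102 and 119 CPM in the TN mice and 595 and 722 CPM in the 14D mice (log2 fold change 2.58 ± 0.21 (SE), adjusted p = 0.000206). Gpd1, its cytosolic partner, which makes the glycerol-3-phosphate of triglyceride, was at 275 and 257 CPM in the TN mice and 809 and 1171 CPM in the 14D mice (log2 fold change 1.91 ± 0.26 (SE), adjusted p = 0.00278). Both rose in both pools, which for Gpd2 was a condition of its being named. The acyl-CoA synthetase Acsl5 held 2 UMIs at TN and 2088 at 14D, a ratio of 151 (95% counting interval 41.6 to 1244), or 43.0 with the TN aliquot that did not list it at 5 UMIs, and Acsl3 rose by 2.31 on the log2 scale. The fatty acid-binding protein Fabp5 was listed at 0 at TN and was at 28.7 and 40.2 CPM at 14D, at least 1.71-fold higher. Acsl3 and Fabp5 passed in no fit without a mouse. Plin2, a droplet coat protein from another list, was at 62.6 and 63.6 CPM in the TN mice and 354 and 457 CPM in the 14D mice (log2 fold change 2.65 ± 0.35 (SE), adjusted p = 0.0021).

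Of 7 genes for calcium and creatine cycling, which can spend ATP without Ucp1, 3 rose. Itpr2, an inositol trisphosphate receptor that releases calcium from the endoplasmic reticulum, was at 73.5 and 50.4 CPM in the TN mice and 387 and 325 CPM in the 14D mice (log2 fold change 2.50 ± 0.23 (SE), adjusted p = 0.000369). Itpr1 was at 272 and 273 CPM in the TN mice and 769 and 875 CPM in the 14D mice (log2 fold change 1.60 ± 0.20 (SE), adjusted p = 0.00162), and Atp2a2, the calcium pump SERCA2, at 174 and 193 CPM in the TN mice and 313 and 285 CPM in the 14D mice (log2 fold change 0.71 ± 0.17 (SE), adjusted p = 0.0271). All 3 were higher in both 14D mice, and the pump moved least. Itpr1 and Itpr2 passed in every fit without a mouse, and Atp2a2 in none (adjusted p between 0.064 and 0.224). Of 16 genes of sterol synthesis, 3 rose: Insig1, which holds back SREBP processing, was at 18.8 and 47.7 CPM in the TN mice and 319 and 593 CPM in the 14D mice (log2 fold change 3.84 ± 1.00 (SE), adjusted p = 0.0419), Cyp51 rose by 3.51 and Srebf2, the gene for SREBP-2, by 0.98 on the log2 scale. Cyp51 held 5 UMIs at TN, and its ratio of pooled levels was 12.5, or 3.13 with the 3 TN aliquots that did not list it at 5 UMIs each. These 3 calls became 1 without 14D replicate 1 and 0 without any other of the 4 mice, and Insig1 passed in none of these fits (adjusted p between 0.099 and 0.217).

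Among the genes named for their small p values alone, Slc4a4, a sodium bicarbonate cotransporter, was at 127 and 127 CPM in the TN mice and 1295 and 961 CPM in the 14D mice (log2 fold change 3.15 ± 0.26 (SE), adjusted p = 0.000234). Adcy10, the soluble adenylyl cyclase that bicarbonate activates, was listed at 0 in all TN aliquots and at 115 and 165 CPM at 14D, at least 6.95-fold higher. Nav2 was at 17.2 and 5.30 CPM in the TN mice and 521 and 385 CPM in the 14D mice (log2 fold change 5.35 ± 0.48 (SE), adjusted p = 0.000327), and Col27a1, a fibrillar collagen, at 7.82 and 7.95 CPM in the TN mice and 223 and 125 CPM in the 14D mice (log2 fold change 4.48 ± 0.44 (SE), adjusted p = 0.000574). Col27a1 thus moved opposite to the other collagens described below. Sept9, a septin of the cytoskeleton, held 3 UMIs at TN and 2141 at 14D, a ratio of 103 (95% counting interval 35.2 to 499), although all 4 TN aliquots listed it. Atp8a1, a phospholipid flippase, was at 67.3 and 87.5 CPM in the TN mice and 376 and 361 CPM in the 14D mice (log2 fold change 2.28 ± 0.20 (SE), adjusted p = 0.000327).

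Among the named genes that fell, the smallest p was that of Zbtb16, which encodes the transcription factor PLZF. It was at 3941 and 2708 CPM in the TN mice and 694 and 673 CPM in the 14D mice. Zbtb16 was abundant in both TN mice and fell in both pools (log2 fold change −2.26 ± 0.22 (SE), adjusted p = 0.000571), which the rule for naming genes by small p required. Of 17 adipogenic transcription factors, Zbtb16 and 3 others fell, Rxra by 1.28, Zfp423, a regulator that holds white identity, by 1.26 and Klf15 by 1.37 on the log2 scale, and 0 rose. The number that fell was 1 without TN replicate 1, 3 without TN replicate 2, 1 without 14D replicate 1 and 2 without 14D replicate 2. Pparg, the master regulator of adipocytes, was at 4505 and 1709 CPM in the TN mice and 2431 and 5554 CPM in the 14D mice and overlapped between the groups (adjusted p = 0.836). Of 16 white adipocyte hormones and markers, 4 fell and 0 rose (2 fell without TN replicate 1, 6 without TN replicate 2, 4 without 14D replicate 1 and 2 without 14D replicate 2), and the summed level of the list was 8494 and 6836 CPM in the TN mice and 3270 and 3074 CPM in the 14D mice.

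Nnat, neuronatin, a proteolipid of the endoplasmic reticulum, was at 2915 and 2520.3 CPM in the TN mice and 347 and 325 CPM in the 14D mice (log2 fold change −3.01 ± 0.39 (SE), adjusted p = 0.0021). Tshr, the thyrotropin receptor, was at 637 and 758 CPM in the TN mice and 156 and 139 CPM in the 14D mice (log2 fold change −2.23 ± 0.29 (SE), adjusted p = 0.0021). Npr3, the clearance receptor that removes natriuretic peptides, was at 781 and 519 CPM in the TN mice and 278 and 167 CPM in the 14D mice (log2 fold change −1.56 ± 0.29 (SE), adjusted p = 0.00977); its adjusted p was 0.099 without TN replicate 1 and 0.099 without 14D replicate 2. Each of these genes was lower in both 14D mice than in either TN mouse. Lep, leptin, was at 372 and 146 CPM in the TN mice and 58.7 and 99.7 CPM in the 14D mice and missed the threshold (log2 fold change −1.79 ± 0.50 (SE), adjusted p = 0.0523), with a log2 difference from −2.46 (adjusted p = 0.020, without TN replicate 2) to −0.72 (without TN replicate 1). Adipoq, adiponectin, was at 79.8 and 297 CPM in the TN mice and 228 and 175 CPM in the 14D mice (log2 fold change 0.17 ± 0.62 (SE), adjusted p = 0.901), with TN replicate 1 below and TN replicate 2 above both 14D mice. Of 23 lipolysis genes, Npr3 and the perilipin Plin4 fell and 0 rose, Plin4 being at 1829 and 1953 CPM in the TN mice and 973 and 816 CPM in the 14D mice (log2 fold change −1.09 ± 0.28 (SE), adjusted p = 0.0413). Over all genes tested, 2.92% fell. The median log2 difference of the list was −0.15, and its summed level had a ratio of 1.12 in pool 1 and 0.71 in pool 2. Plin4 lost its call in all 4 fits without a mouse (adjusted p between 0.109 and 0.224), and the list had 0 calls without TN replicate 1 and without 14D replicate 2.

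Of 23 matrix genes tested in adipocyte nuclei, 6 fell and 1 rose, with a median log2 difference of −0.83, and 2 or 3 fell when 1 of the 4 mice was left out and 3 with thinned sums or the 4 young mice alone. Col6a3, the α3 chain of collagen VI, was at 153 and 143 CPM in the TN mice and 15 and 7.97 CPM in the 14D mice (log2 fold change −3.69 ± 0.44 (SE), adjusted p = 0.00125). The protease Adamts5 was at 421 and 151 CPM in the TN mice and 54.5 and 69.2 CPM in the 14D mice (log2 fold change −2.21 ± 0.47 (SE), adjusted p = 0.0204), with the TN mice apart from each other and both above the 14D mice. Col6a3 passed in every fit without a mouse, and Adamts5 in 1 of the 4. Col5a1, Col5a2, Col6a1 and Col15a1 also fell, and the higher member was the metalloprotease Adam12, at 311 and 705 CPM in the TN mice and 1096 and 1112 CPM in the 14D mice (log2 fold change 1.23 ± 0.30 (SE), adjusted p = 0.0317). Col5a2 and Col6a1 passed in no fit without a mouse, Col5a1 in 1, and Col15a1 and Adam12 in 2. The 13 fibroblast markers summed to 823 and 743 CPM at TN and to 670.5 and 470.2 CPM at 14D in the same adipocyte nuclei, 12 of 13 being detected at TN and all 13 at 14D. Their part in the fall of the matrix genes was not tested.

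Other genes that fell were Slit3, a secreted guidance cue, at 4034 and 2375 CPM in the TN mice and 677 and 431 CPM in the 14D mice (log2 fold change −2.53 ± 0.36 (SE), adjusted p = 0.00316), and Igfbp5, by 2.05 on the log2 scale, whose call held in 1 of the 4 fits without a mouse. Among those named for small p values, Podn (a small proteoglycan) was at 465 and 307 CPM in the TN mice and 114 and 92.8 CPM in the 14D mice (log2 fold change −1.89 ± 0.21 (SE), adjusted p = 0.000944), Dapk1 (a kinase of cell death) at 1144 and 967 CPM in the TN mice and 262 and 299 CPM in the 14D mice (log2 fold change −1.92 ± 0.20 (SE), adjusted p = 0.000636) and C1s1 (a complement protease) at 98.6 and 98.1 CPM in the TN mice and 23.7 and 21.4 CPM in the 14D mice (log2 fold change −2.13 ± 0.21 (SE), adjusted p = 0.000574). Both 14D mice were below both TN mice for each of them. Usp35, Myo1c, Cntfr, Sctr and Ahnak fell by 1.64 to 2.35 on the log2 scale. In contrast, Ntrk3, a neurotrophin receptor, rose (log2 fold change 1.51 ± 0.35 (SE), adjusted p = 0.0271), from 138 and 217 CPM to 491 and 489 CPM, but its call was lost in all 4 fits without a mouse (adjusted p between 0.064 and 0.176).

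Other lists had few calls or none. No gene passed among 18 of the circadian clock, 15 of the unfolded protein and heat shock response, 13 of hypoxia and angiogenic ligands, 8 of inflammation and interferon and 2 of the cell cycle. Of 12 glucocorticoid genes, 1 fell, which was Zbtb16, and of 10 immediate early and cAMP genes, Nr4a2 rose (at least 1.25-fold higher) and Creb3l2 fell by 1.05 on the log2 scale. Over all genes tested, 5.04% were higher and 2.92% lower. Nr4a2 had adjusted p = 0.075 without TN replicate 1, and Creb3l2 passed in no fit without a mouse. Hemoglobin transcripts also passed: the summed level of 5 blood genes in adipocyte nuclei was 6.33 and 13.1 CPM at TN and 530.0 and 64.6 CPM at 14D, with Hba-a1 and Hba-a2, near-identical copies whose reads may be split, higher. The muscle list summed to 0 and 2.63 CPM at TN and 8.42 and 8.67 CPM at 14D, with 7 of its 10 markers, among them Acta1 and Ckm, at 0 in all 4 mice.

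In non-adipocyte nuclei, 1 of 9265 genes (0.0108%) was higher and 2 (0.0216%) were lower at 14D, and 900 had an unadjusted p under 0.05. These nuclei held 436596 and 387316 UMIs in the TN mice and 840598 and 1564533 in the 14D mice, so depth was lower than for adipocyte nuclei at 14D. The higher gene was Vwf, von Willebrand factor, a marker of endothelial cells, at 11.6 and 13 CPM in the TN mice and 60.6 and 77.5 CPM in the 14D mice (log2 fold change 2.47 ± 0.32 (SE), adjusted p = 0.0173). It rested on 6 of the 8 aliquots, and the summed endothelial marker list was higher beside it, at 1207 and 1123 CPM at TN and 1989 and 3032 CPM at 14D, as was the endothelial-like share of nuclei. Their part in the result was not tested. The lower genes were Gm48099 and Gm42418, a noncoding model known to overlap ribosomal RNA sequence, at 23201 and 12587 CPM at TN and 11966 and 3300.0 CPM at 14D (log2 fold change −1.43 ± 0.20 (SE), adjusted p = 0.0173). The Vwf call was lost in 3 of the 4 fits without a mouse, as adjusted p = 0.082, 0.367 and 0.429 without TN replicate 1, TN replicate 2 and 14D replicate 2, and without the pool term (adjusted p = 0.056). Gm48099 was lost in the same fits with the same adjusted p values, and Gm42418 without TN replicate 2 (0.367), without 14D replicate 2 (0.429) and without the pool term (0.670).

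No pathway list had a member past the threshold in non-adipocyte nuclei. All 18 endothelial growth and lipid transport genes tested had a positive log2 difference, with a median of 1.03, against a median of 0.03 and 53.1% positive over all genes tested. Within endothelial-like nuclei, whose share of nuclei was higher at 14D, the median of 17 genes of that list was 0.52. Flt1, a receptor of vascular endothelial growth factor, was at 125 and 112 CPM in the TN mice and 213 and 360.4 CPM in the 14D mice (log2 fold change 1.22 ± 0.24 (SE), adjusted p = 0.095), and Cd36, a fatty acid transporter of endothelium and adipocytes, at 359.8 and 287 CPM in the TN mice and 728 and 829 CPM in the 14D mice (log2 fold change 1.26 ± 0.35 (SE), adjusted p = 0.248). Both were higher in both 14D mice without passing. Of 20 lipogenesis genes, 17 had a positive difference (median 0.87) and 0 passed, and the list's median was 0.42 over 10 genes in fibroblast-like and 0.27 over 10 genes in endothelial-like nuclei. Acss2 had the smallest p of these, at 11.6 and 2.61 CPM in the TN mice and 64.3 and 24.5 CPM in the 14D mice (log2 fold change 2.55 ± 0.81 (SE), adjusted p = 0.31). Adipocyte markers in these nuclei summed to 2361 and 2153 CPM at TN and 3015 and 2394 CPM at 14D. Col6a3, which fell in adipocyte nuclei, was at 608 and 527 CPM in the TN mice and 471 and 462 CPM in the 14D mice here and did not pass (log2 fold change −0.29 ± 0.19 (SE), adjusted p = 0.66).

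Fibroblast-like nuclei, which include the progenitors of adipocytes, had 2 higher genes (0.0256% of 7809) and 3 lower (0.0384%), and 646 with an unadjusted p under 0.05. Mdga2, a membrane-anchored adhesion protein, was at 6.55 and 23.4 CPM in the TN mice and 92.4 and 99.1 CPM in the 14D mice (log2 fold change 2.71 ± 0.49 (SE), adjusted p = 0.0419). Hrh2, the histamine H2 receptor, was listed at 0 in every TN aliquot and at 45.2 and 33.4 CPM at 14D, at least 1.04-fold higher. Both lost their call in each fit without 1 of the 4 mice, with DESeq2 and without the pool term (adjusted p = 0.408 for each). The lower genes were Gm48099, Gm42418 and Lars2, the mitochondrial leucyl-tRNA synthetase, at 651 and 531 CPM in the TN mice and 388 and 175 CPM in the 14D mice (log2 fold change −1.16 ± 0.20 (SE), adjusted p = 0.0261). Lars2 lost its call without TN replicate 2 (adjusted p = 0.417), 14D replicate 2 (0.598) and the pool term (0.580). Gm48099 lost it without 14D replicate 2 (0.079), and Gm42418 without 14D replicate 2 (0.084) and the pool term (0.743). No progenitor gene of 23 tested passed, among them Pdgfra, Dpp4 and Pi16, with log2 fold change 0.31 ± 0.18 (SE), adjusted p = 0.687 for Pdgfra, log2 fold change 0.29 ± 0.22 (SE), adjusted p = 0.786 for Dpp4 and log2 fold change −0.26 ± 0.16 (SE), adjusted p = 0.71 for Pi16.

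Endothelial-like nuclei had 0 calls of 2060 genes by edgeR in either direction (0% higher and 0% lower), 0 by DESeq2, and 95 genes with an unadjusted p under 0.05. Immune-like nuclei had 0 higher (0%) and 1 lower gene (0.0264% of 3783), Gm42418, and 226 with an unadjusted p under 0.05. That call was lost without TN replicate 1 (adjusted p = 0.119), TN replicate 2 (0.272), 14D replicate 2 (0.295) and the pool term (0.902). Within endothelial-like nuclei, Vwf was at 207 and 259 CPM at TN and 583 and 635 CPM at 14D, on 5 UMIs in each TN mouse, and did not pass (log2 fold change 1.38 ± 0.43 (SE), adjusted p = 0.901). Among 17 macrophage state genes tested in immune-like nuclei, 16 had a positive difference, with a median of 0.31 and 0 calls, against 51.4% positive and a median of 0.01 over all genes tested there. The immune marker list in the same nuclei summed to 13957 and 13906 CPM at TN and 15041 and 17043 CPM at 14D. The adipocyte marker list summed to 1568 and 809.9 CPM at TN and to 764 and 682 CPM, and their part in the result was not tested. With simulated counts, 6.5% of 2-fold and 84.0% of 4-fold changes were recovered in adipocyte nuclei and 10.5% and 87.0% in non-adipocyte nuclei, and the smaller classes were not simulated. Every simulated gene had the same dispersion and no pool effect, and the changed genes were not low in UMIs. These rates therefore do not cover genes with few UMIs.

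The difference between the classes was tested itself, with each mouse as its own block. Of 11390 genes, 49 (0.43%) responded more positively in adipocyte than in non-adipocyte nuclei and 56 (0.492%) less. The number of differences was 2 without TN replicate 1, 26 without TN replicate 2, 83 without 14D replicate 1 and 28 without 14D replicate 2.

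Slc4a4 rose by 3.15 on the log2 scale in adipocyte nuclei and had −0.15 in non-adipocyte nuclei, a difference of 3.26 ± 0.28 (SE), adjusted p = 0.000209. Elovl6 rose by 4.92 and had 0.84 in non-adipocyte nuclei, a difference of 4.28 ± 0.91 (SE), adjusted p = 0.0496. In the other direction, Col6a3 fell by 3.69 in adipocyte nuclei and had −0.29 in non-adipocyte nuclei, a difference of −3.44 ± 0.36 (SE), adjusted p = 0.00133. Hip1, an endocytic adaptor, had −1.84 against 0.52 (−2.40 ± 0.35 (SE), adjusted p = 0.00983). For Acly, Acaca and Fasn the difference between classes did not pass, with adjusted p values of 0.0664, 0.627 and 0.759, so the data do not show that their response differed. In counts simulated in the same way, this test of the difference recovered 0.0% of 2-fold and 55.5% of 4-fold differences. For Ucp1 and Dio2, with no UMI in either class of the TN mice, the test of the difference gave no usable value and is not read.

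**Figure D3:**
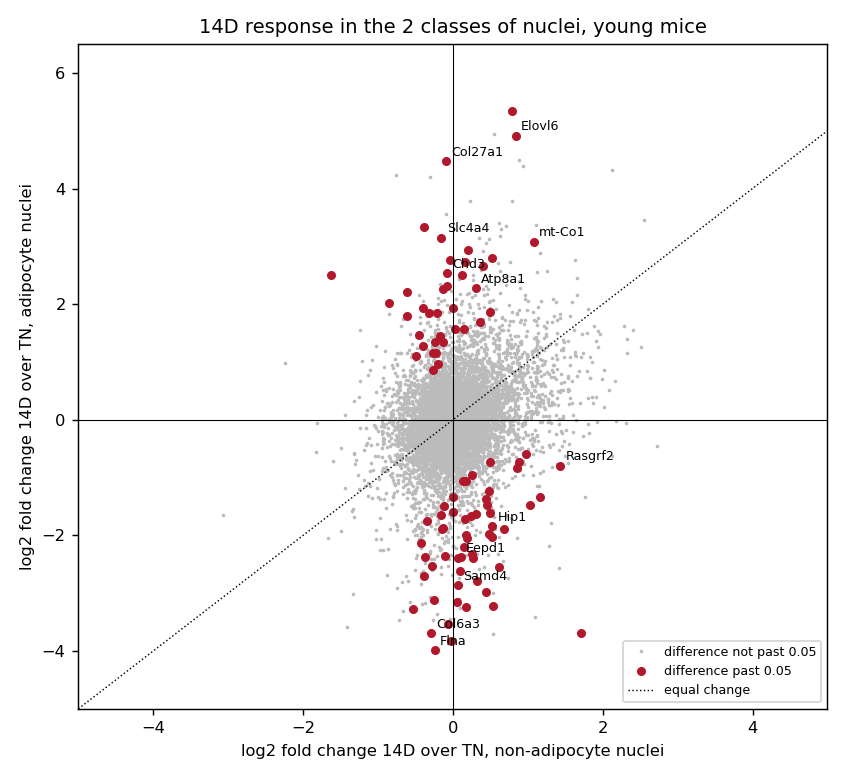
Log2 fold change at 14D over TN in non-adipocyte nuclei (horizontal axis) and adipocyte nuclei (vertical axis) of young mice for 7802 genes with more than 3 UMIs in every group (red, 93 genes whose difference passed the threshold; dotted line, equal change). Red points lie off the dotted line, with Slc4a4, Col27a1 and Elovl6 above 0 and Col6a3 and Flna below 0 on the vertical axis.

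Shares of nuclei were a description, since the exact permutation test used for them cannot reach p below 0.33 with 2 mice against 2. Adipocyte nuclei made up 54.3% and 37.9% of nuclei in the TN mice and 63.4% and 46.3% in the 14D mice, a difference of 8.79 percentage points (two-sided exact permutation test, p = 0.667). That test took no account of pool. Fibroblast-like nuclei made up 33.1% and 42.8% at TN and 22.1% and 28.3% at 14D, lower in both 14D mice by 12.7 points on average (exact p = 0.33). Endothelial-like nuclei made up 3.52% and 4.72% at TN and 5.66% and 11.9% at 14D. Immune-like nuclei, at 8.61% and 13.2% and at 8.18% and 11.4%, overlapped, with differences of −0.43 and −1.79 points within pools. Within pools the adipocyte share was higher at 14D by 9.13 and 8.45 points.

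**Figure D4:**
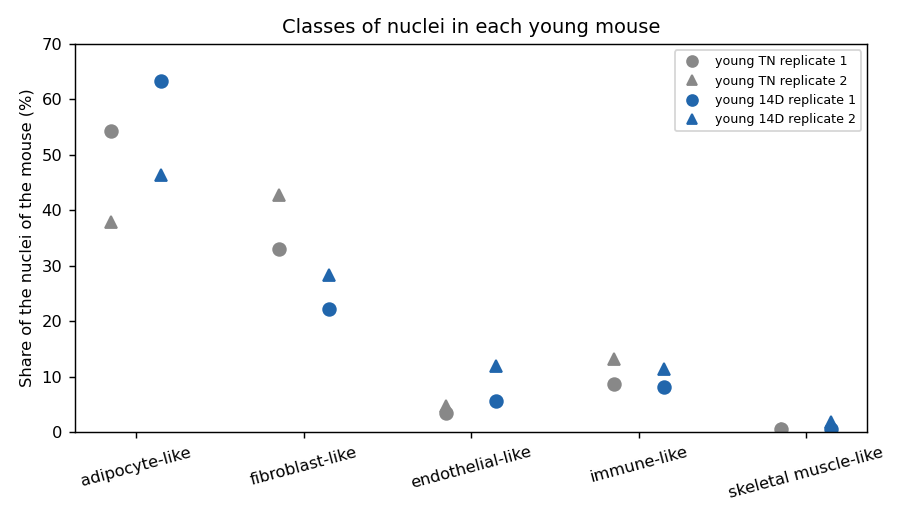
Share of each class among the nuclei of each young mouse, in percent (gray, TN; blue, 14D; circles, replicate 1; triangles, replicate 2). The fibroblast-like share is 33.1% and 42.8% at TN and 22.1% and 28.3% at 14D, and the adipocyte share differs between replicates by more than between temperatures.

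Aged mice, which entered the same fit and so share its spread, pool term and gene filter with the young comparison, gave the contrast in separate animals. In their adipocyte nuclei, 147 genes (1.43%) were higher and 150 (1.46%) lower at 14D than at aged TN, and in non-adipocyte nuclei 0 were higher (0%) and 0 lower (0%) by edgeR, with 616 of 9265 genes at an unadjusted p under 0.05. Of the 518 genes higher in young mice, 470 (90.7%) had a positive log2 difference in aged mice, against 56.1% of all genes tested. Of the 300 lower genes, 277 (92.3%) had a negative one, against 43.9%. The genes that passed in both ages numbered 100 higher, which is 19.3% of the young and 68.0% of the aged calls, and 78 lower, which is 26.0% of the young and 52.0% of the aged calls.

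Gk (log2 3.41 in aged mice, adjusted p = 0.00238), Cidea (4.75 in aged mice, adjusted p = 0.0143), Esrrg (2.46 in aged mice, adjusted p = 0.0069) and Tkt (1.27 in aged mice, adjusted p = 0.0157) passed in aged mice as well. For Acly, Fasn and Acaca the aged differences were 2.28, 1.88 and 2.17 on the log2 scale and did not pass, with adjusted p values of 0.235, 0.151 and 0.114, and the difference between ages itself had adjusted p values of 0.688, 0.85 and 0.909. In that test of the difference, 5 genes passed and 925 had an unadjusted p under 0.05. Itpr2 rose by 2.50 in young mice and had 0.12 in aged mice, and Atp8a1 rose by 2.28 against 0.29. The other 3 were Mapt, Cd59a and Pdgfd, whose aged log2 differences were −2.10, −1.44 and −1.87.

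**Figure D5:**
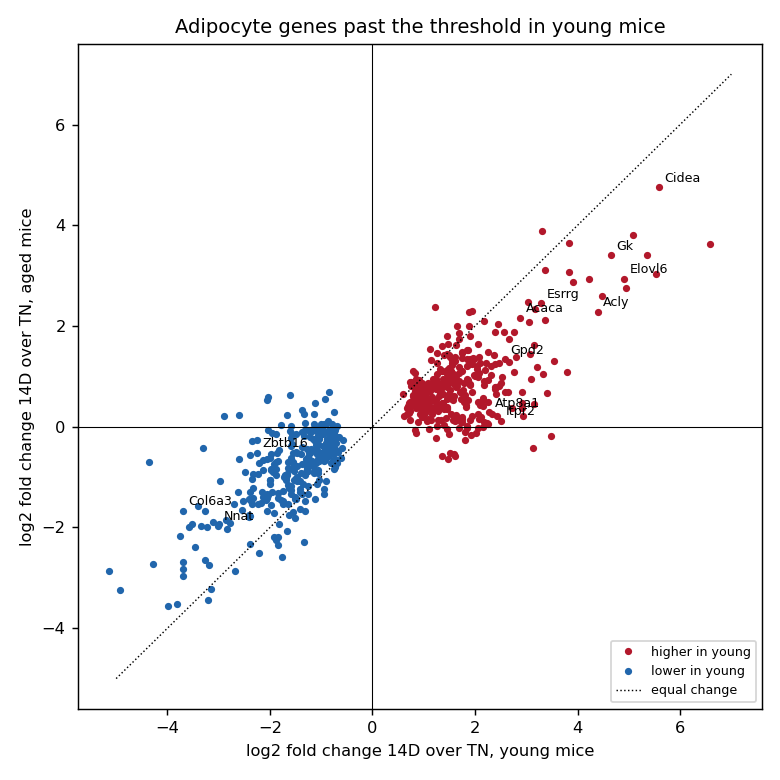
Log2 fold change at 14D over TN in adipocyte nuclei of young mice (horizontal axis) and aged mice (vertical axis) for 648 of the 818 genes past the threshold in young mice, those with more than 3 UMIs in every group (red, 350 higher in young mice; blue, 298 lower; dotted line, equal change). In aged mice 329 of the red genes lie above 0 and 275 of the blue genes below 0.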

How the data were processed

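The authors deposited raw UMI counts, whole numbers without normalization, as 1 genes-by-nuclei matrix for each hashed aliquot. By the study's methods, reads were aligned to GRCm38 with Cell Ranger, introns included, ambient RNA was removed with CellBender, and nuclei were assigned to hashtags with demuxEM, keeping singlets. Ambient RNA removal can remove true low counts. A gene listed in an aliquot held at least 6 UMIs, and 6434 of 15344 gene symbols were listed in all 8 aliquots of the 4 young mice. Age, temperature and replicate of each aliquot were read from the sample table deposited with the matrices. The hashtag libraries were not used here.

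Of 15329 barcodes, 15233 held 300 genes or more and mitochondrial UMIs up to 5%. Scrublet in scanpy 1.11.5 marked 495 doublets (3.25%), which were removed along with 104 nuclei that held at least 2 of 17 liver genes. The 2 pools shared 11 barcodes, and no barcode was shared within a pool. Nuclei were clustered in Seurat 5.3.0 (2000 variable genes, 18 dimensions, resolution 0.4) and clusters named from marker lists. For each class, 1 sum of UMIs per mouse entered edgeR 4.0.16 in R 4.3.3 (quasi-likelihood F-test, TMM, filterByExpr); the model held group (6 levels) and pool over all 12 mice. The SE was taken as the size of the log2 fold change over the root of its F statistic. Gene CPM use TMM-scaled totals, and list sums use raw totals. For shares of nuclei the exact permutation test was two-sided and took no account of pool. A fold against a group at 0 was computed against the most UMIs its aliquots can have held, and counting intervals are exact at 95% and cover counting error only. Nothing in the labels says that the mice were other than separate animals.

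The pool pairs the replicates, as the sample table gives it, so pool was the block. The differences between pools correlated between TN and 14D mice over genes with r = 0.0668 in adipocyte and 0.17 in non-adipocyte nuclei. Named genes were the 12 higher and 10 lower genes with the smallest p that moved alike in both pools in adipocyte and in non-adipocyte nuclei, 6 and 6 in the other classes and for the difference, up to 4 members of each list and any that passed, and a set of 25 genes of thermogenic and white adipocytes. Some genes that the rule names are not reported here. Members and lists were chosen with earlier results of these data known. Gene coordinates are from GENCODE M21 on the same build, another release than the authors used. The test scripts were checked on simulated data. Alternatives were DESeq2 1.42.0, RLE factors, other filters, mice, classes, thinning and treatments of unlisted genes.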

Additional observations from a re-analysis of the deposited data

Results flagged for a closer look

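The 14D response differed between adipocyte and non-adipocyte nuclei in 105 genes by the test of the difference itself, of which 49 were more positive and 56 less positive in adipocyte nuclei. The named genes among the more positive ones had log2 differences of 3.26 in Slc4a4, 4.45 in Col27a1, 6.47 in Sept9, 2.56 in Chd3 (a chromatin remodeler), 2.02 in mt-Co1, 1.96 in Atp8a1 and 4.28 in Elovl6. Sept9 held 3 UMIs in TN adipocyte nuclei, so its fitted value depends on the prior count. The named genes among the less positive ones had −3.44 in Col6a3, −2.94 in Samd4 (an RNA-binding repressor of translation), −2.28 in Rasgrf2 (a Ras exchange factor), −2.51 in Eepd1, −3.78 in Flna (the actin crosslinker filamin A) and −2.40 in Hip1. Rasgrf2 stands apart in this group, since neither class passed by itself for it, with 144 and 162 CPM in the adipocyte nuclei of the TN mice and 99.1 and 75.8 CPM in those of the 14D mice. Without TN replicate 1, which held the larger part of the TN adipocyte nuclei, 2 of these differences passed in all.

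The 14D response of adipocyte nuclei differed between young and aged mice in 5 genes, each with an adjusted p of 0.0448 by edgeR. The log2 difference, young minus aged, was 1.98 in Atp8a1, 2.38 in Itpr2, 2.14 in Cd59a (a complement inhibitor of the cell surface) and 2.61 in Pdgfd (a platelet-derived growth factor). It was 10.49 in Mapt, which encodes tau, but Mapt held no UMI in the TN nuclei of young mice, so that value depends on the prior count and is no bound. Mapt levels were 0 CPM in both young TN mice and 24.9 and 24.5 CPM in the young 14D mice. Cd59a and Pdgfd did not pass in young mice by themselves, with log2 differences of 0.70 and 0.75.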

How the results depend on the processing

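The 818 adipocyte calls were 845 with DESeq2, 802 with RLE factors, 810 with no filter on low counts and 703 with no replicate block (the pool term left out), and 705, 800, 763 and 677 of the 818 were shared. They fell to 434 with the 4 mice alone, 351 with 1 aliquot per mouse and 490 with thinned sums (425 shared), and between 150 and 457 passed without a mouse, where the lone mouse of a group was assumed to vary like the others. Filling every unlisted gene with the same 5 UMIs gave 8327, 1678 non-adipocyte, 452 fibroblast-like, 2578 endothelial-like and 360 immune-like calls and 266 class differences. Such filling adds a constant to samples of unequal depth, and its part in the number of calls was not tested. The split of adipocyte calls was 63.3% higher, and 53.3% of 583 calls in a refit on genes listed in all 8 aliquots; the median of all genes was 0.28 with no filter. In non-adipocyte nuclei the 3 calls became 12 with DESeq2, 34 with no filter, 25 with the 4 mice alone, 0 with no replicate block, 6 with classes by marker share, 26 with doublets and liver-marked nuclei kept, 0 at 500 genes per nucleus, 1 with 1 aliquot, 11 with thinned sums, 15 for genes listed in all 8 and 8 with muscle-like nuclei left out, and 0 to 8 without a mouse. The 5 fibroblast-like calls became 62 with no filter, 1 with the 4 mice alone, 1 with no replicate block, 2 at 500 genes, 2 with 1 aliquot and 3 for genes listed in all 8, and 0 to 6 without a mouse. For the 0 endothelial-like calls there were 4 with no filter and 5 with doublets kept. The 1 immune-like call became 31 with no filter, 0 with the 4 mice alone, with no replicate block, with doublets kept and with 1 aliquot, 2 at 500 genes, 3 with thinned sums and 3 for genes listed in all 8, and 0 to 1 without a mouse. The 105 class differences were 162 with DESeq2, 236 with classes by marker share and 167 with doublets kept, 70 with no replicate block, and 2 to 83 without a mouse. The adipocyte share differed by 0.264 to 17.3 points without a mouse. Of the values for single genes, lists and shares of the other classes under an alternative, 2145 counted as the same, 399 lost the call, 13 gained it, 115 moved and 10 reversed. For a gene, the same meant direction and side of the threshold kept. For a list it meant a similar number of calls, and for a share a shift smaller than the SD within a group. The reversed log2 values, all in adipocyte nuclei, were Adipoq (without TN and 14D replicate 1), Pparg (without TN and 14D replicate 2) and Srebf1 (without TN replicate 1), which ran from −0.70 to 1.45, from −0.54 to 1.42 and from −0.51 to 0.36 without a mouse; Srebf1 at 0.59 and Pdgfra at 0.058 with unlisted genes filled; and Pdgfra at 0.87 with doublets kept and from −1.98 to 4.27 without a mouse. For these changes the cause was not tested. Depth limits genes low at TN: 266 of the 518 higher genes were not listed in all 8 aliquots. In simulated counts, with the same dispersion for every gene, 2-fold changes were recovered in 6.5% of adipocyte and 10.5% of non-adipocyte genes. The genes changed there were not low in UMIs.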

Other observations

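In the 14D mice, adipocyte nuclei with and without a counted Ucp1 UMI held different levels of other lists. The thermogenic list, Ucp1 itself left out, summed to 18266 and 13758 CPM in nuclei with a Ucp1 UMI and to 6552 and 4272 CPM in nuclei without. The white adipocyte list summed to 790.3 and 769 CPM in nuclei with a Ucp1 UMI and to 4006 and 3718 CPM in nuclei without, and fatty acid oxidation genes to 7791 and 7468 CPM against 4339 and 3850 CPM. The direction was the same in both mice, and median depths were close within a mouse, at 3259 and 2801 UMIs in the first and 5585 and 5287 UMIs in the second. Nuclei were split by a measured gene, so these values are a description with no test.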
